A study of Mus musculus with 3 samples.

Results

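The carboxylesterases described here are the 10 genes Ces1b, Ces1c, Ces1d, Ces1e, Ces1f, Ces1g, Ces2a, Ces2e, Ces3a and Ces3b, found by symbol among 32285 features, which hold 19 carboxylesterase genes in all. Their levels were taken in hepatocyte-like nuclei of frozen mouse liver, per library and per zone of the liver lobule. The study's title concerns the DNA methyltransferase DNMT1 in steatotic liver disease, and its groups vary diet and a drug. All mice were male C57BL/6N (C57BL/6 in the sample labels) and 8 weeks old at the start. The SD group received a standard diet. The MASLD group (metabolic dysfunction-associated steatotic liver disease) was kept for 18 weeks on a disease-inducing diet with a sugar drink, called sucrose in the design and listed as glucose and fructose in the protocol. The Aza-TdC group received that diet and drink for 18 weeks and, from week 14 to week 18, daily Aza-TdC by gavage at 2 mg per kg. Aza-TdC is 5-aza-4′-thio-2′-deoxycytidine, a nucleoside analogue that depletes DNMT1. Each group is 1 library of sorted nuclei from 120 mg of tissue, and how many animals went into a library is not stated in the labels. Everything measured is nuclear RNA, without the cytoplasm.

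Carboxylesterases are serine hydrolases, most of them kept in the lumen of the endoplasmic reticulum by a retention signal at their end. In hepatocytes they cleave ester and amide drugs and take part in the turnover of stored triacylglycerol for lipoprotein secretion and oxidation. The mouse genome carries many more copies than the human genome, in tandem arrays. Hepatocytes along the lobule, from the portal tract (periportal) to the central vein (pericentral), differ in metabolic tasks, with gluconeogenesis and urea synthesis on the portal side and drug metabolism on the central side.

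The 10 genes lie on mouse chromosome 8 in 2 blocks (GRCm38, GENCODE models). The first block, chr8:93020214-93535830, holds 9 genes on the minus strand in the order Ces1a, Ces1b, Ces1c, Ces1d, Ces1e, Ces1f, Ces1g, Ces1h and Ces5a. The second, chr8:104734003-105150109, holds 11 on the plus strand, among them Ces2a, Ces2e, Ces3a and Ces3b. The members' models have 12 to 14 exons. The closest pairs in sequence were as follows. The coding parts of Ces3a (chr8:105048601-105058413) and Ces3b (chr8:105083753-105093929) were 95.3% identical, and those of Ces1b (chr8:93056728-93080017) and Ces1c (chr8:93099015-93131283) 90.9%. Ces2a (chr8:104734003-104741634) and Ces2e (chr8:104926260-104934672) were 83.3% identical. Reads that fit both copies of a pair cannot be assigned: of the 50-base stretches in the last 500 bases of the transcript, 25.1% were shared between Ces1b and Ces1c, 31.3% of those of Ces3a occurred in Ces3b, and 5.99% of those of Ces3b occurred in Ces3a. For Ces2a the share was 10.0%, with Ces2b, Ces2e and Gm7208, and for the other members it was at most 2.22%. The labels do not state how such reads, or introns, were counted, so values of Ces1b with Ces1c, and of Ces3a with Ces3b, are uncertain by the reads they share.

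The promoters of 7 of the 10 members have an entry in the RefSeq table (GRCm38.p6), from 250 bases before the start site to 50 after it. Ces1b and Ces1c are shown as near copies that were both lower in MASLD than in SD, Ces3b because it was the member lowest in Aza-TdC against SD, and Ces2a and Ces2e as near copies whose levels went apart. Each runs 5′ to 3′ on the gene's strand. Capitals mark matches, on either strand, to the TATA box (letters TATAAA), the box spelled CCAAT, a nuclear receptor core (AGGTCA), the core of the HNF1 element (GTTAAT), the STAT element (TTCNNNGAA), the core of the antioxidant response element (TGACNNNGC) or the GC box (GGGCGG). Ces1b has a second start site in the table, not printed, whose window overlaps the one shown. The spans are chr8:93079891-93080190 (Ces1b), chr8:93131234-93131533 (Ces1c), chr8:104733753-104734052 (Ces2a), chr8:104926010-104926309 (Ces2e) and chr8:105083505-105083804 (Ces3b).
Ces1b: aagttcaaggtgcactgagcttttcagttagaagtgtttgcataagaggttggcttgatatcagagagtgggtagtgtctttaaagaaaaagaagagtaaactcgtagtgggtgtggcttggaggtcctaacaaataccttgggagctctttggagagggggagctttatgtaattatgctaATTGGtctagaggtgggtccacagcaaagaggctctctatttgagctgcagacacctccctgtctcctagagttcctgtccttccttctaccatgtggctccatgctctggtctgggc
Ces1c: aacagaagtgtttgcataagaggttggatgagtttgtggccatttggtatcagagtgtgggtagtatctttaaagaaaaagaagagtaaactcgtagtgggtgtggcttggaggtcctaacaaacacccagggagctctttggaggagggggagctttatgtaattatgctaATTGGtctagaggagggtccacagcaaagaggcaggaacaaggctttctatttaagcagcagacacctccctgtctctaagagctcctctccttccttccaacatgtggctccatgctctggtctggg
Ces2a: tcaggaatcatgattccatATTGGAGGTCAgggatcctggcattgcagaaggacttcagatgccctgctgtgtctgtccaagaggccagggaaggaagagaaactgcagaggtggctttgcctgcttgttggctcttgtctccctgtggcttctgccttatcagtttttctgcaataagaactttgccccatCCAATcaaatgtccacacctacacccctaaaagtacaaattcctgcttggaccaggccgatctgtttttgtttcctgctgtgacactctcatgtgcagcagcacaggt
Ces2e: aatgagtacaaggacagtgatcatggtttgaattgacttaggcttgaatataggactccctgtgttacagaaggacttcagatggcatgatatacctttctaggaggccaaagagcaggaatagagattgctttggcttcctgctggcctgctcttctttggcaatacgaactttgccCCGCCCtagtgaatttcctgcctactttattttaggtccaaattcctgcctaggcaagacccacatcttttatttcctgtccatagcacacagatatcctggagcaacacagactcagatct
Ces3b: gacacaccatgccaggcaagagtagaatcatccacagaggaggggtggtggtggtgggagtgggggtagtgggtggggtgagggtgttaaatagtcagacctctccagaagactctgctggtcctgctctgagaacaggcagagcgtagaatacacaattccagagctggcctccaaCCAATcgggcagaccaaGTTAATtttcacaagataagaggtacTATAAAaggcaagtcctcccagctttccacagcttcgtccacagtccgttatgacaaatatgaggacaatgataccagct
The Ces1b and Ces1c promoters were 92.7% identical over 273 aligned bases. Both promoters hold a CCAAT box on the reverse strand, 68 and 78 bases before the start (in Ces1b 10 bases after its second start). Those of Ces2a and Ces2e were 69.1% identical over 265 bases, with CCAAT at -231 and -58 and AGGTCA at -226 in Ces2a (the match at -231 adjoins that at -226), and a GC box at -72 in Ces2e. Ces3b holds a TATA box at -30, GTTAAT at -56 and CCAAT at -73. Of 32851 promoters of this length in the table, 13.6% hold TATAAA, 37.4% CCAAT, 16.3% AGGTCA, 7.10% GTTAAT, 8.30% TTCNNNGAA, 12.4% TGACNNNGC and 35.7% GGGCGG. A match describes the letters only.

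The libraries held 43569644 to 51789068 UMIs (unique molecules counted by their barcodes) in 6928 to 7598 nuclei, and 9 to 15 barcodes were shared by any pair of them. Hepatocyte-like nuclei numbered 6857 for SD, 5803 for MASLD and 6748 for Aza-TdC, with a median of 5946, 6435 and 6787 UMIs. In every cluster of that class at least 15 of 20 hepatocyte markers reached 0.25 of the level in their highest cluster. This does not set the class apart, since the SD clusters named stellate and sinusoidal endothelial reached 20 of 20. The 10 leading genes of each hepatocyte-like cluster held no marker of another class. The naming rule fixed this, since these clusters had no hepatocyte marker among their leading genes and 1 marker of another class would have left them unnamed. Hepatocyte RNA was also found in nuclei of other classes, where the markers stood at a median of 0.618, 0.632 and 0.526 of their hepatocyte-like level. The median mitochondrial share was 0.124%, 0.188% and 0.0812%, Malat1 stood at 51495, 31206 and 41829 CPM (UMIs scaled to a common total per library), and the 5 red blood cell genes summed to 38.3, 363 and 59.8 CPM. The 11 markers of T and NK cells summed to 9.68, 65.4 and 10.9 CPM, those of macrophages and Kupffer cells to 8.55, 36.2 and 32.3 CPM, and those of cholangiocytes to 57.2, 126 and 93.8 CPM. No marker of these lists was at 0 in all libraries. Their part in the differences between libraries was not tested. With 1 library a group no test between groups is possible, and the 95% intervals below cover counting error only.

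Across the 3 libraries the members followed 4 orders. Ces1d, Ces1e, Ces1f and Ces2a were lowest in SD and highest in Aza-TdC, Ces3a and Ces3b ran the opposite way, Ces1b, Ces1c and Ces1g were lowest in MASLD, and Ces2e was highest there. In sums over nuclei such as these, fewer nuclei with a transcript and fewer transcripts per nucleus cannot be told apart. Shares of nuclei with a UMI are given further below. A member is counted as differing when its CPM in one library was at least 2-fold that in the other with an interval that leaves out a ratio of 1. For MASLD against SD, 1 of 10 members was past that line as higher, where 12.8% of 15754 genes were, and 2 as lower, where 4.89% were. For Aza-TdC against MASLD, 1 member was higher, where 2.69% of 15907 genes were, and 1 lower, where 4.8% were. For Aza-TdC against SD, 4 members were higher, where 9.98% of 15861 genes were, and 1 lower, where 4.8% were. The 3 comparisons share libraries and are given side by side. The median log2 ratio of the 10 members was 0.09, 0.63 and 0.90, beside 0.14, -0.09 and 0.06 over all genes counted. A scaling that centres all genes (median-ratio) lowers log2 ratios of MASLD to SD by 0.15, raises those of Aza-TdC to MASLD by 0.09, and turned the direction of none of the 10 members in any comparison.

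**Figure D1:**
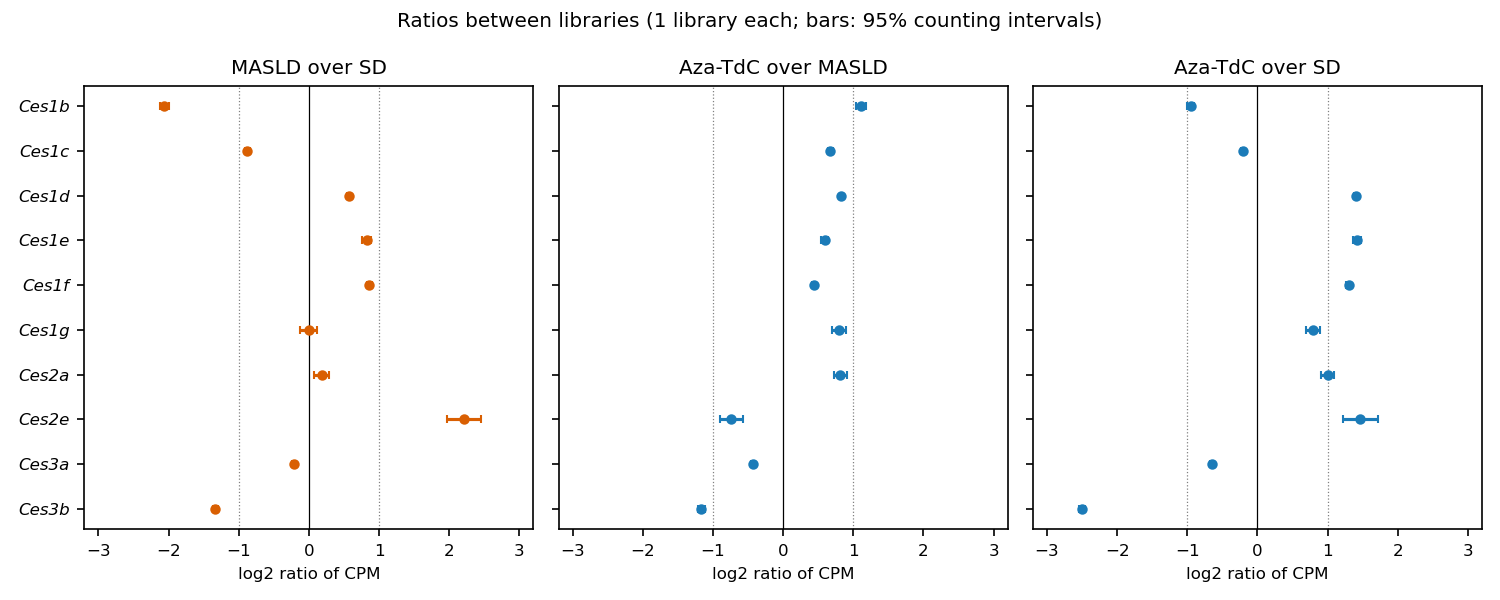
Log2 ratio of CPM in hepatocyte-like nuclei for each carboxylesterase (rows), MASLD over SD, Aza-TdC over MASLD and Aza-TdC over SD. Points are ratios of 1 library each, bars 95% counting intervals, and dotted lines the 2-fold limits; Ces1b (-2.06) and Ces2e (2.21) lie farthest apart in the first panel and Ces3b (-2.50) is the lowest in the last.

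Ces1d, also known as triacylglycerol hydrolase, mobilises stored triacylglycerol for very low-density lipoprotein (VLDL) assembly. The SD library had 778 CPM (95% interval 770.3 to 787), the MASLD library 1155 (1145 to 1166) and the Aza-TdC library 2054 (2041 to 2067), which is 5.03, 8.00 and 15.1 UMIs per nucleus. The log2 ratio was 0.57 for MASLD to SD (0.55 to 0.59), 0.83 for Aza-TdC to MASLD (0.81 to 0.85) and 1.40 for Aza-TdC to SD (1.38 to 1.42). The 3 intervals do not overlap, and of these ratios only the last passed the 2-fold line. Ces1d gave 26.9%, 41.6% and 52.6% of all UMIs of the 10 genes in the same order of libraries. The family as a whole took 0.289%, 0.278% and 0.391% of hepatocyte-like UMIs.

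Ces1f, a second triacylglycerol hydrolase of the same block, followed the same order. The SD, MASLD and Aza-TdC libraries had 246, 447 and 604 CPM, with log2 ratios of 0.86 (0.83 to 0.90) for MASLD to SD and 0.43 (0.41 to 0.46) for Aza-TdC to MASLD. Ces1e, known as egasyn, which anchors beta-glucuronidase in the endoplasmic reticulum, stood at 75.7, 134 and 202 CPM. Its log2 ratios were 0.83 (0.76 to 0.89) and 0.59 (0.54 to 0.64) in the same order. Against SD, the Aza-TdC library was 2.46-fold higher in Ces1f and 2.67-fold higher in Ces1e. On the log2 scale the step from SD to MASLD was the larger for Ces1f, and the step from MASLD to Aza-TdC the larger for Ces1d. For Ces1e the order of the steps turned with median-ratio scaling (0.67 and 0.68).

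Ces2a, of the CES2 type that acts on drug esters and acylglycerols, had 31.1 CPM in the SD library (29.4 to 32.7), 35.2 in the MASLD library (33.4 to 37.1) and 62.1 in the Aza-TdC library (59.9 to 64.3). The SD and MASLD libraries were close, with a log2 ratio of 0.18 (0.07 to 0.29) that became 0.03 with median-ratio scaling. Aza-TdC stood above MASLD by a log2 ratio of 0.82 (0.73 to 0.91). Ces1g, an esterase linked in mouse to hepatic lipid content, had 28.3, 28.2 and 49.1 CPM in the same order. SD and MASLD did not differ beyond counting error for Ces1g, at a log2 ratio of -0.00 (-0.12 to 0.11), and the ratio of Aza-TdC to MASLD was 0.80 (0.70 to 0.90). In both genes the Aza-TdC library stood above the other two, which lay close together.

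Ces1b and Ces1c, the near copies with the near-identical promoters printed above, were both lowest in MASLD. For Ces1b the SD library had 224 CPM (219 to 228), the MASLD library 53.7 (51.4 to 56.0) and the Aza-TdC library 115 (112 to 118). It was 4.17-fold lower in MASLD than in SD, a log2 ratio of -2.06 (-2.13 to -1.99), and 2.15-fold higher in Aza-TdC than in MASLD, at 1.11 (1.03 to 1.18). Against SD the Aza-TdC library stayed lower, at a log2 ratio of -0.95. Ces1c, an esterase secreted into mouse plasma, stood at 431, 235 and 374 CPM in the same order. Its log2 ratio was -0.88 (-0.91 to -0.84) for MASLD to SD and 0.67 (0.63 to 0.71) for Aza-TdC to MASLD, so it moved in the direction of Ces1b by a smaller step. Both values carry the uncertainty of the shared 3′ sequence. Ces1a, the next gene in the block, had 70, 5 and 14 UMIs. It was lower in MASLD than in SD, and its log2 ratio of Aza-TdC to MASLD spans 0 (-0.37 to 3.01).

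Ces2e, another gene of the CES2 type, was the member with the fewest UMIs, 172 for SD, 720 for MASLD and 532 for Aza-TdC. That is 3.88 CPM (3.32 to 4.51), 17.9 (16.6 to 19.3) and 10.7 (9.84 to 11.7), so the 3 intervals are apart. It was 4.61-fold higher in MASLD than in SD, a log2 ratio of 2.21 (1.96 to 2.45), and lower in Aza-TdC than in MASLD, at -0.74 (-0.90 to -0.57). In nuclei of other classes it stood at 4.80, 16.1 and 6.32 CPM. The hepatocyte-like level was thus 0.808 of that of other nuclei for SD, 1.11 for MASLD and 1.70 for Aza-TdC, and the diet ratio of Ces2e was seen at a level near that of other nuclei.

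Ces3b was the member with the widest range. Its level was 536 CPM with SD (529 to 543), 212 with MASLD (208 to 217) and 94.6 with Aza-TdC (91.9 to 97.3). It was 2.53-fold lower in MASLD than in SD, at a log2 ratio of -1.34 (-1.37 to -1.30), and 2.24-fold lower again in Aza-TdC, at -1.16 (-1.22 to -1.11), which makes 5.66-fold between SD and Aza-TdC. Ces3a, its near copy, stood at 535, 460.2 and 341 CPM, with log2 ratios of -0.22 (-0.24 to -0.19) and -0.43 (-0.46 to -0.40). The copies ran in the same direction with steps of unlike size: Ces3a had 0.998 UMIs per UMI of Ces3b with SD, 2.17 with MASLD and 3.61 with Aza-TdC. In nuclei with at most 0.0812% mitochondrial UMIs, the median of the Aza-TdC library (1571, 566 and 3374 nuclei), the Ces3a ratio of MASLD to SD was -0.01, while that of Ces3b stayed at -1.25.

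**Figure D2:**
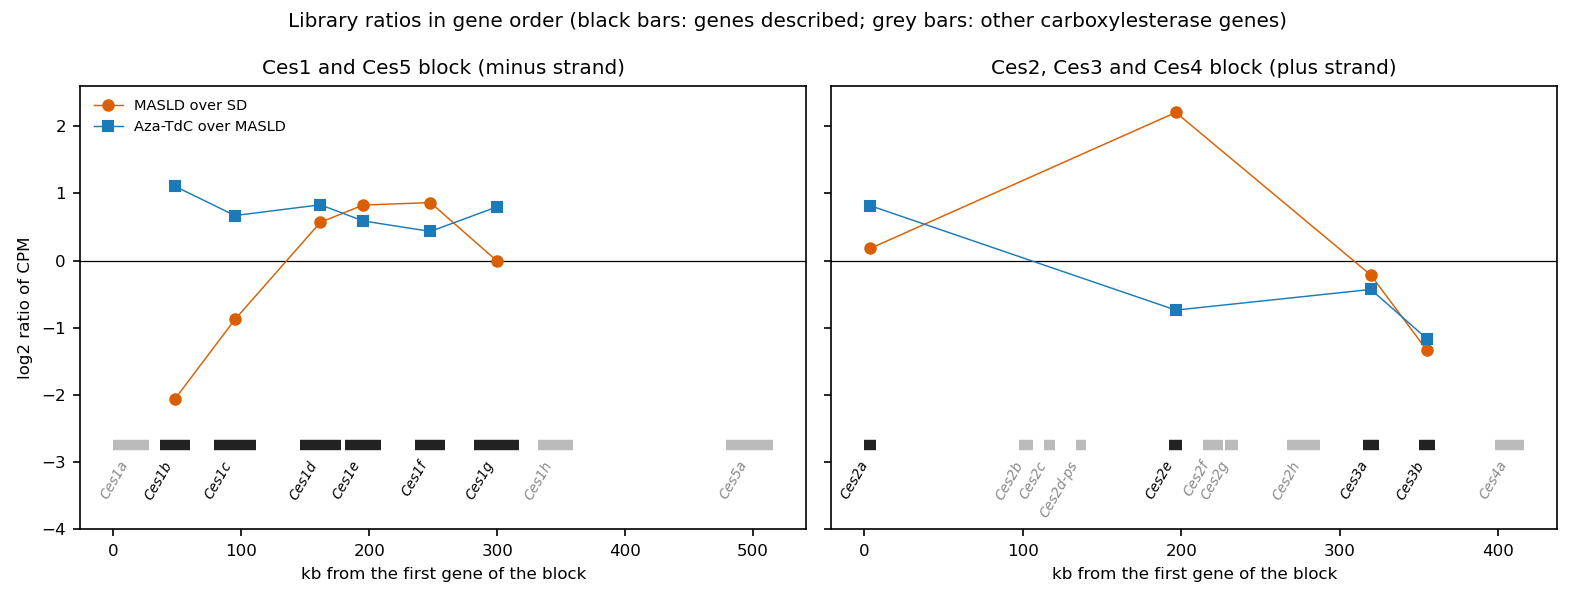
Log2 ratios of CPM by position of the gene's middle in each block of carboxylesterase genes, in kb from the first gene; orange circles give MASLD over SD and blue squares Aza-TdC over MASLD, in hepatocyte-like nuclei. In the first block the ratio of MASLD to SD runs from -2.06 at Ces1b and -0.88 at Ces1c to 0.57 at Ces1d, while all 6 members there are positive for Aza-TdC over MASLD.

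By position, the 6 Ces1 members all had a higher CPM in Aza-TdC than in MASLD, with log2 ratios from 0.43 (Ces1f) to 1.11 (Ces1b), as the plot in gene order shows. Only Ces1b passed the 2-fold line, and the median over all genes was -0.09. Ces1b and Ces1c share 3′ sequence, and how shared reads were counted is not stated, so their values may not be independent. The diet ratio differed along the same block: neighbours Ces1b and Ces1c were lower in MASLD, the next 3 genes Ces1d, Ces1e and Ces1f were higher, and Ces1g did not differ. In the second block Ces2a was higher in Aza-TdC than in MASLD and Ces2e, Ces3a and Ces3b were lower.

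The lobule was divided within each library by a score of 16 pericentral and 18 periportal marker genes, none of them a carboxylesterase, into 3 zones of equal size called periportal, middle and pericentral. All pericentral markers were higher in the pericentral zone of each library, as were the periportal ones in the periportal zone apart from 1 of 18 in SD. Since the score is made of these same markers, this was largely fixed in advance and is no check of the zones. The zones are ranges of a score, and 1136 SD, 943 MASLD and 1443 Aza-TdC nuclei lay within 0.1 SD of the score from a limit. The outer zones were compared with edgeR's quasi-likelihood test with the library as a block, so that the 3 libraries serve as replicates of the zone contrast although they differ in diet and drug. Of the 10 members, 5 were called higher pericentral (adjusted p under 0.05), where 9.3% of 14186 genes were, and 1 higher periportal, where 8.35% were. Without the library block 0 of the 10 were called by edgeR (lowest adjusted p = 0.584), beside 0.724% of all genes. In that fit 1 of the 10 had an unadjusted edgeR p under 0.05, as did 7.95% of all genes. DESeq2 with the block called 6 of the 10, beside 11.1% of all genes.

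**Figure D3:**
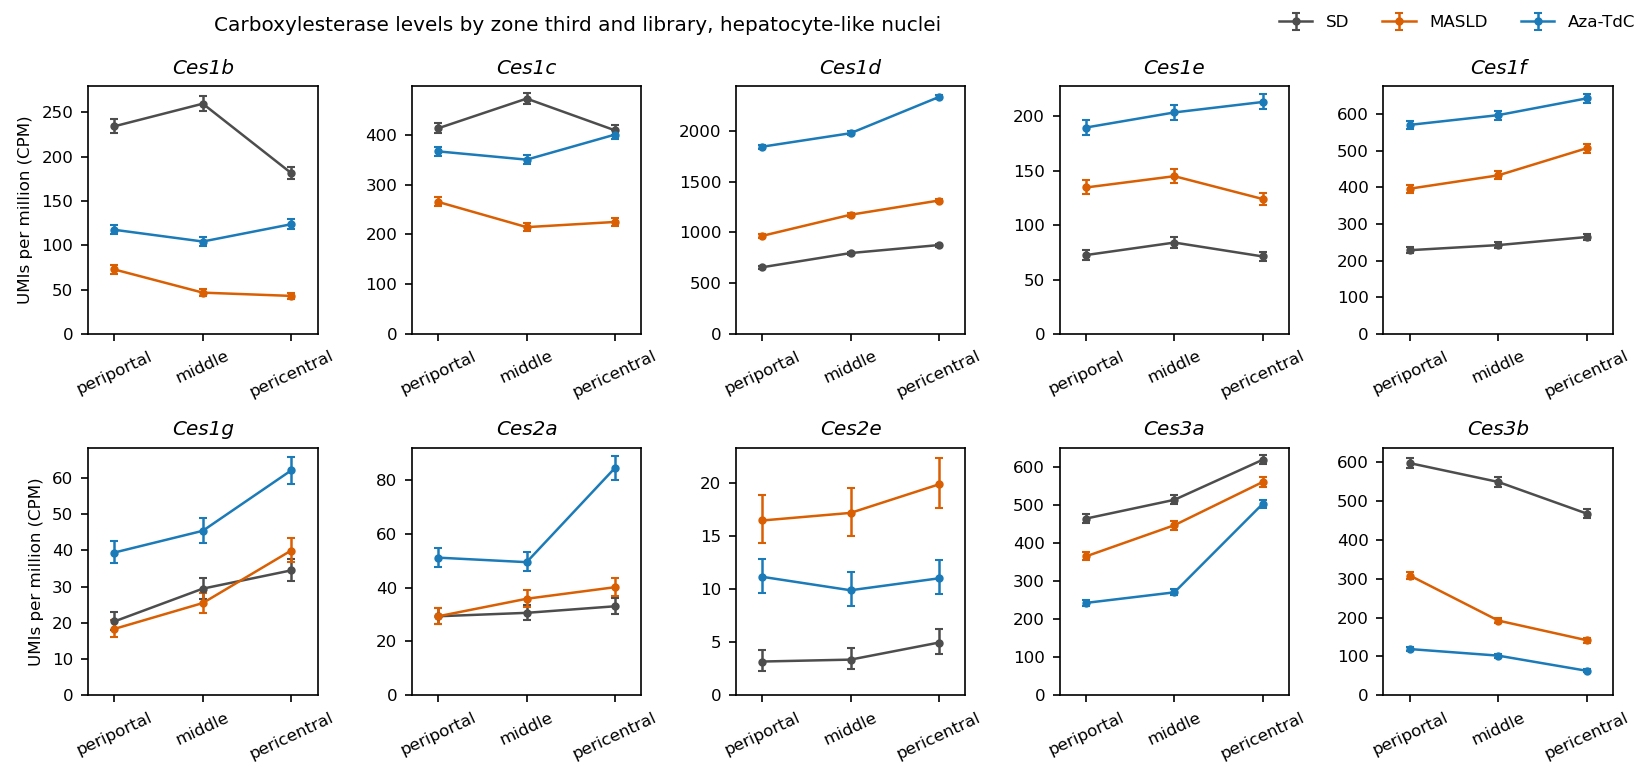
Level of each carboxylesterase in CPM (vertical axes, each from 0) in the periportal, middle and pericentral zones of hepatocyte-like nuclei, with 1 line per library and 95% Poisson intervals. Ces1g and Ces3a climb towards the pericentral zone and Ces3b declines in all 3 libraries; for Ces1e, Ces1f and Ces1d the lines of the libraries are stacked without crossing.

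Ces1g had the highest pericentral ratio in the fit over the 3 libraries, though in the Aza-TdC library alone, and in the fit without the MASLD library, Ces3a was above it. It stood at 20.4, 29.4 and 34.5 CPM from the periportal to the pericentral zone with SD, at 18.3, 25.5 and 39.9 with MASLD and at 39.4, 45.4 and 62.0 with Aza-TdC. The log2 ratio of the outer zones was 0.85 ± 0.09 (SE of the fit), edgeR adjusted p = 0.00171, and pericentral was higher in 3 of 3 libraries. Here and below the SE is derived from the test statistic of the fit. The dispersion in that statistic draws on other genes too, so the SE is not the plain spread of the libraries. Within single libraries the Ces1g ratio was 0.76 with SD, 1.12 with MASLD and 0.65 with Aza-TdC. Ces3a followed, at 464, 514 and 619 CPM in SD, 365, 447 and 561 in MASLD, and 243, 271 and 503 in Aza-TdC. Its fitted log2 ratio was 0.72 ± 0.12, edgeR adjusted p = 0.00857. Within single libraries the Ces3a ratio was 0.41 (0.37 to 0.46) with SD, 0.62 (0.57 to 0.67) with MASLD and 1.05 (0.997 to 1.10) with Aza-TdC. In Aza-TdC the periportal and middle zones were close to each other, and the pericentral zone alone stood near the other libraries. Whether the slopes differ between groups cannot be tested with 1 library each.

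Ces1d had a gentler slope with a like size in each library, at 0.42, 0.44 and 0.34 on the log2 scale in SD, MASLD and Aza-TdC. Between the periportal and the pericentral zone the SD library went from 656 to 875 CPM, the MASLD library from 965 to 1314 and the Aza-TdC library from 1844 to 2333. The fitted ratio was 0.43 ± 0.05, edgeR adjusted p = 0.00232. Ces1f gave 0.27 ± 0.06, edgeR adjusted p = 0.0203, and Ces2a 0.50 ± 0.11, edgeR adjusted p = 0.0232; both were higher pericentral in 3 of 3 libraries, though for Ces2a the SD interval spans 0 (-0.02 to 0.36). The Ces1f call was lost without the MASLD library (adjusted p = 0.136) and without the Aza-TdC library (0.0654), and so was that of Ces2a (0.0750 and 0.0919). In Ces2a the outer zones of SD lay close together, 29.3 against 33.0 CPM, and those of Aza-TdC apart, 51.1 against 84.4.

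Ces3b was the 1 member higher in the periportal zone. From the periportal to the pericentral zone the SD library went from 597 to 468 CPM, the MASLD library from 308 to 142 and the Aza-TdC library from 119 to 63.3. The fitted log2 ratio was -0.76 ± 0.13, edgeR adjusted p = 0.01, with all 3 libraries in that direction. Their ratios were -0.35 with SD, -1.12 with MASLD and -0.91 with Aza-TdC. The near copies Ces3a and Ces3b thus had opposite slopes: UMIs of Ces3a per UMI of Ces3b went from 0.778 periportal to 1.32 pericentral with SD, from 1.19 to 3.95 with MASLD and from 2.04 to 7.94 with Aza-TdC. The ratio of MASLD to SD for Ces3b was -0.95 (-1.01 to -0.90) in the periportal zone and -1.72 (-1.79 to -1.65) in the pericentral zone.

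The remaining 4 members had no call by zone. Ces1b gave -0.31 ± 0.14 (edgeR adjusted p = 0.202), from -0.37 in SD and -0.76 in MASLD to 0.07 (-0.01 to 0.16) in Aza-TdC, which became -0.07 with narrower outer zones (5 equal parts of the score in place of 3). With the Aza-TdC library left out, the fit gave -0.54 and Ces1b was called periportal (edgeR adjusted p = 0.0154), and with the MASLD library left out it gave -0.12 (edgeR adjusted p = 0.633). Ces1c gave -0.01 ± 0.08 (adjusted p = 0.938), Ces1e 0.04 ± 0.07 (adjusted p = 0.771) and Ces2e 0.26 ± 0.13 (adjusted p = 0.226). For Ces2e the counts are low, from 3.19 CPM in the periportal zone of SD upward. That these 4 missed the threshold does not show that their zones are alike. For Ces1e the most pericentral cluster of each library had its lowest level, as given below.

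**Figure D4:**
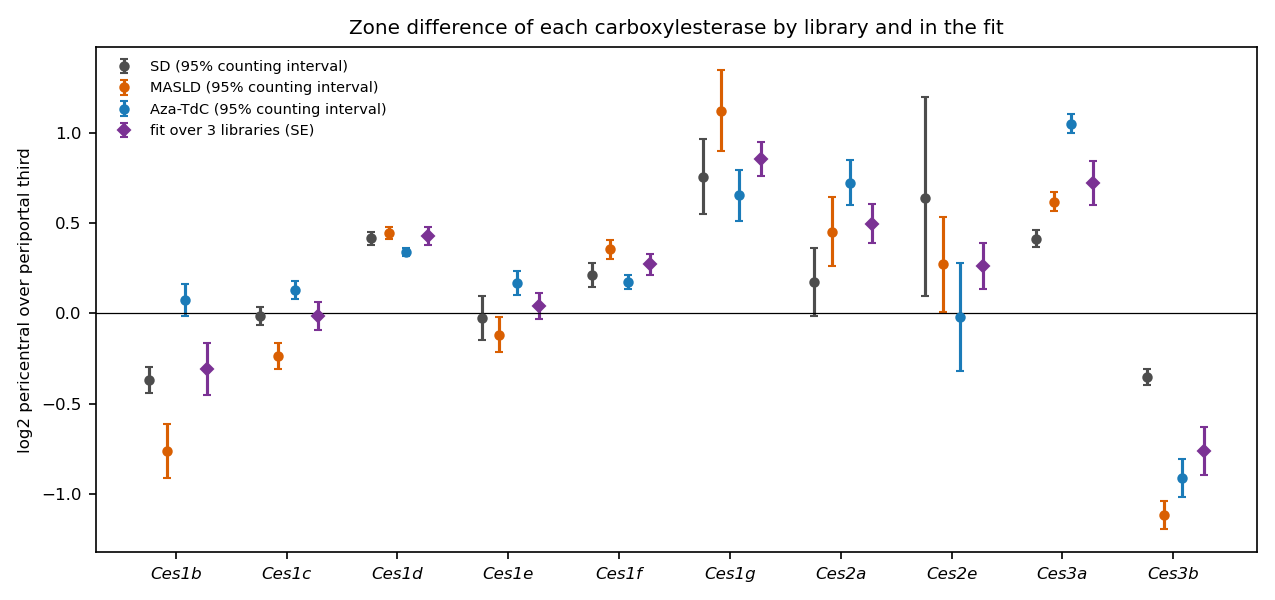
Log2 ratio of the pericentral to the periportal zone for each carboxylesterase in each library, with 95% counting intervals. Diamonds give the edgeR fit over the 3 libraries with its SE, derived from the test statistic. The dispersion in that statistic draws on other genes too, so the SE is not the plain spread of the libraries. Ces3b is negative and Ces1d, Ces1f, Ces1g, Ces2a and Ces3a are positive in every library, while Ces1b, Ces1c and Ces1e differ in sign between MASLD and Aza-TdC, with an Aza-TdC interval for Ces1b that spans 0.

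The library differences held in every zone for most members. The ratio of Aza-TdC to MASLD for Ces1d was 0.93, 0.75 and 0.83 in the periportal, middle and pericentral zones. For Ces1b it was 0.69 (0.58 to 0.81), 1.16 (1.03 to 1.30) and 1.53 (1.40 to 1.66), so the Aza-TdC level stood farther above MASLD towards the central vein. For Ces1b the ratio of MASLD to SD was -1.69, -2.48 and -2.08. For Ces3a the ratio of Aza-TdC to MASLD was -0.59 and -0.72 in the periportal and middle zones and -0.16 (-0.20 to -0.11) in the pericentral zone. For Ces2a the same ratio was 0.80, 0.46 and 1.07.

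Within a library the members also varied between clusters of hepatocyte-like nuclei, which were made without carboxylesterase genes. Ces1b ranged 3.49-fold between clusters in SD, Ces2a 3.62-fold and Ces3b 3.57-fold in MASLD, and Ces3a 3.10-fold in Aza-TdC. Ces1d, Ces1c and Ces1f ranged 1.27-fold to 1.84-fold in all 3 libraries. Ces1e was lowest in the most pericentral cluster of each library, by median zone score. With SD that was 42.8 CPM at a score of 2.65, with MASLD 94.3 at 2.09 and with Aza-TdC 139 at 2.41. In MASLD a cluster of 362 nuclei that was not pericentral came close, with 97.3 CPM at a score of -0.27. The highest clusters of Ces1e stood at 105, 168 and 256 CPM. The same SD cluster had the lowest Ces1b of that library, 82.4 CPM, while the other libraries had their lowest Ces1b in less pericentral clusters. In MASLD a cluster of 362 nuclei had the lowest level of 6 of the 10 members, with Ces2a at 11.6 CPM against 36.9 in the other hepatocyte-like nuclei, Ces3a at 244 against 475 and Ces1b at 25.2 against 55.6. The 8 cholangiocyte markers summed there to 406 CPM against 106, and their part in these levels was not tested. Ces1g (27.9 against 28.2) and Ces2e (19.0 against 17.8) were not lower in that cluster. Without it the ratio of MASLD to SD was -2.01 for Ces1b and -1.28 for Ces3b, and the same number of members passed the 2-fold line.

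Shares of nuclei with a UMI give the same orders. After each nucleus was thinned to 2000 UMIs (147, 87 and 56 shallower hepatocyte-like nuclei left out), Ces1d was seen in 76.0%, 85.3% and 96.8% of hepatocyte-like nuclei, in the order SD, MASLD, Aza-TdC. Before thinning the shares were 95.3%, 97.5% and 99.8%. In nuclei of other classes (median 2215, 1967 and 1874 UMIs) it was seen in 42.5%, 29.6% and 44.9% after thinning. Free RNA, doublets and misplaced nuclei cannot be told apart in those shares. Ces3b was seen in 64.1%, 31.7% and 17.2% of thinned hepatocyte-like nuclei and in 28.5%, 7.57% and 5.10% of the others, and in 91.0%, 64.8% and 44.8% of hepatocyte-like nuclei before thinning. Ces1b was seen in 34.8%, 9.46% and 18.5%, against 10.6%, 1.97% and 6.12% in the others and 66.3%, 25.9% and 45.6% before thinning.

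For Ces1g and Ces2e the SD shares lay near those of the other nuclei. Ces1g was seen in 5.22% of thinned hepatocyte-like nuclei of SD (exact interval 4.70% to 5.78%) and in 5.03% of other nuclei (2.32% to 9.33%), and Ces2e in 0.760% and 0.559%. Before thinning, 15.3% of these SD nuclei had Ces1g and 2.41% had Ces2e. In Aza-TdC Ces1g was seen in 9.31% against 4.34% (26.2% of hepatocyte-like nuclei before thinning). Ces2a was seen in 6.1%, 6.72% and 11.3% of thinned hepatocyte-like nuclei and in 2.23%, 3.29% and 4.34% of the others, and in 17.3%, 20.04% and 32.8% before thinning. After thinning, the variance of the counts over hepatocyte-like nuclei was 1.00 to 1.39 times the mean for the 10 members, highest for Ces1d in Aza-TdC, where counting alone gives 1. Over thinned nuclei, Pearson's r ranged from -0.03 to 0.07 in the 45 pairs of members of each library. With a variance so near that of counting alone, r stays low even for genes that vary together. These values therefore cannot show whether the members vary together.

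**Figure D5:**
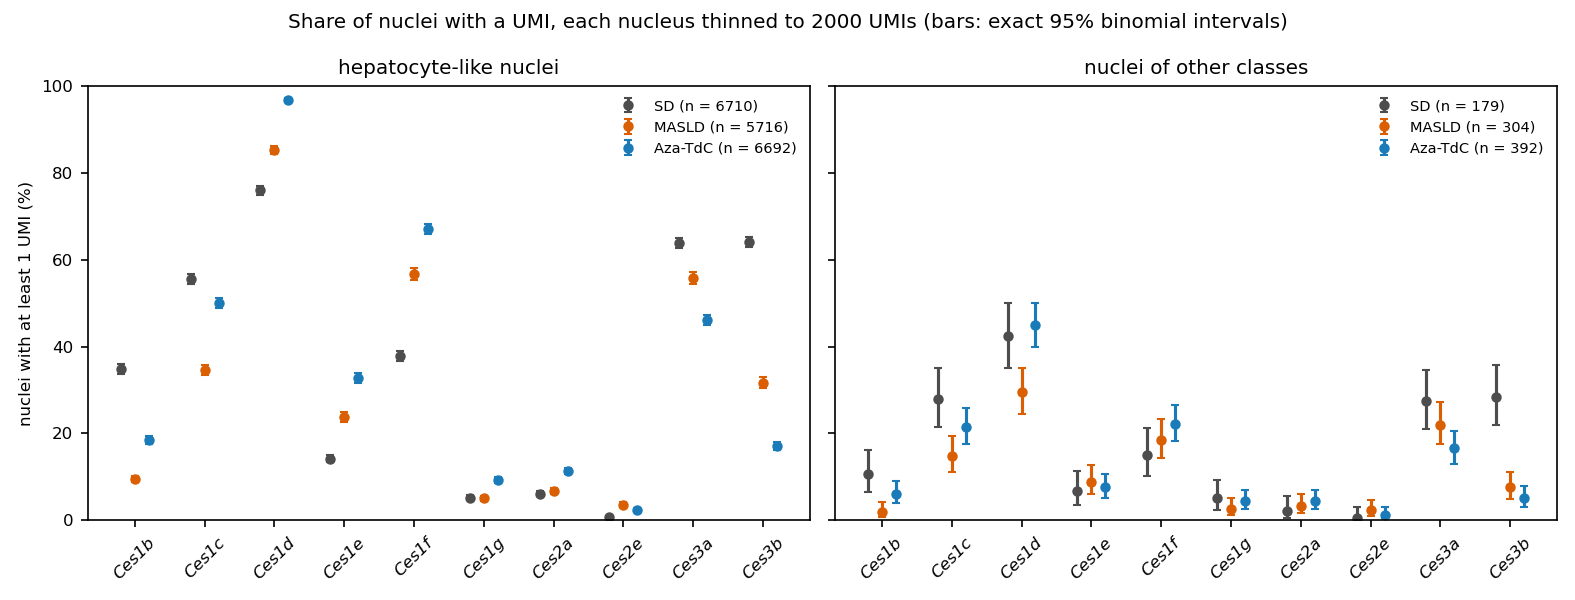
Share of nuclei with at least 1 UMI of each carboxylesterase after thinning to 2000 UMIs, in hepatocyte-like nuclei (left) and nuclei of other classes (right), with exact 95% binomial intervals. Ces1d climbs from 76.0% in SD to 96.8% in Aza-TdC and Ces3b declines from 64.1% to 17.2% on the left; on the right all shares are at most 44.9%.

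Of the 9 other carboxylesterase genes, 5 had at least 20 UMIs over MASLD and SD. Of these, 3 were higher in MASLD than in SD past the 2-fold line (Ces2c, Ces2h and Ces4a) and Ces1a was lower. Over all genes 12.8% were higher and 4.89% lower, and 5 genes are few to set beside these shares. Ces2c, a lipase of the CES2 type, stood at 5.19, 11.7 and 16.8 CPM in the order SD, MASLD, Aza-TdC. Ces2h stood at 1.15, 5.32 and 1.76 CPM, and Ces4a at 4.96, 11.6 and 5.99. Ces2f had no UMI in any library, a count of 0 that allows up to 3 UMIs in each (the floor used for counts of 0), and Ces2b had 4, all in Aza-TdC. In the zone test 2 of 5 other carboxylesterases were called, both pericentral, where 9.3% of all genes were called pericentral and 8.35% periportal.

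Among 15 genes of neutral lipid hydrolysis, 4 were higher in MASLD than in SD past the 2-fold line and none lower, with a median log2 ratio of 0.34, beside 12.8% higher, 4.89% lower and a median of 0.14 over all genes. They were Pnpla3, a triacylglycerol and retinyl ester lipase (3.35), Lipa, the lysosomal acid lipase (2.17), G0s2, an inhibitor of adipose triglyceride lipase (1.89), and Hilpda, another inhibitor of that lipase (1.71). For Aza-TdC against MASLD, Pnpla3 was higher (1.78) and G0s2 lower (-1.04), where 2.69% of all genes were higher and 4.8% lower. Of 12 genes of VLDL assembly, Apoa4, an apolipoprotein of nascent particles, was higher in MASLD (5.43) and Tm6sf2, a factor in VLDL lipidation, lower (-1.03), with a median of 0.53, counts near the shares of all genes. For Aza-TdC against MASLD 1 of the 12 was higher (Tm6sf2) and 2 lower, beside the same shares of 2.69% and 4.8% over all genes.

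Of 13 other ester and epoxide hydrolases, 3 were higher in MASLD than in SD and none lower, where 12.8% and 4.89% of all genes were. Their median log2 ratio was 0.53, beside 0.14 over all genes. The 3 higher hydrolases are named next. These were Bche, the plasma butyrylcholinesterase (1.48), Cmbl, in human a hydrolase of ester prodrugs (1.21), and Pon3, a lactonase (1.04). Among the transcription regulators, Srebf1, a driver of lipogenesis, was higher in MASLD (1.12) and Onecut1, a hepatocyte transcription factor, lower (-1.77). Hnf4a, a main regulator of hepatocyte genes, stood at 407, 215 and 254 CPM. Onecut1 stood at 518, 152 and 61.3 CPM, in the order of Ces3b. These are levels side by side and no relation between them was tested. In the zone test, where 9.3% of all genes were called pericentral and 8.35% periportal, 4 of the 15 genes of neutral lipid hydrolysis were pericentral and 3 periportal. The counts were 1 and 3 of the 12 genes of VLDL assembly and 3 and 0 of the 13 other hydrolases.

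Over the 9 sums of library and zone, the genes with the level pattern most like each member were found by the root mean square difference of centred log2 CPM. For Ces1d these were Mrnip (0.13) and Cdo1 (0.13), for Ces1f Trim34a (0.10) and Cat (0.10), for Ces1e Inmt (0.11) and Ggt6 (0.13), and for Ces1c Tle2 (0.10) and Cnot3 (0.11). For Ces3b they were G6pc (0.19) and Cabyr (0.21), and for Ces3a Tmem189 (0.12) and Ston2 (0.15). For Ces1g they were Nrn1 (0.16) and Cyp2c68 (0.17), for Ces2a Bcl6 (0.14) and Fmo5 (0.18), for Ces2e Syt12 (0.16) and Rnf125 (0.17), and for Ces1b Slc23a3 (0.24) and Zfp61 (0.24). The 9 sums share 3 libraries, and likeness over them describes these libraries only.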

How the data were processed

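Single nuclei of 3 liver libraries, 1 per group, were run with 10x Genomics 3′ chemistry, per the labels' protocols. The authors deposited whole UMI counts for each gene and nucleus, from Cell Ranger 6.1.2, per the file headers. The submitters' processing notes also name Seurat 4.4.0, mm10 and GRCm38. The members, marker lists and gene lists were chosen with earlier results of these data known.

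Kept were nuclei with 500 UMIs, 300 genes and no more than 5% mitochondrial UMIs (7139, 6726 and 7591). Each library was clustered alone (scanpy 1.11.5, igraph 0.11.9, scikit-learn 1.9.0, numpy 2.4.6, scipy 1.17.1, pandas 2.3.3, Python 3.11.15; 3000 variable genes, 30 components, 15 neighbours, Leiden resolution 1), without carboxylesterase and mitochondrial genes. A cluster took another class where its markers had a median log2 ratio of at least 2 and 3 markers were 2-fold higher. Otherwise it was hepatocyte-like with at least 10 of 20 hepatocyte markers at 0.25 of their highest level. Leading genes of such clusters were taken against nuclei of other classes. That step was changed after the clusters had been seen, since a single marker gene had left some without a name. In MASLD 302 nuclei of 2 clusters stayed unnamed and out of the class. One of these clusters, of 82 nuclei, had Angptl8, Osgin1, Aqp8 and Fgf21 among its leading genes, with the cholangiocyte marker Sox9. An Aza-TdC cluster of 142 nuclei with the same genes but Sox9 among its leading genes stayed in the class. No doublet caller was run, so doublets remain.

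UMIs were summed per library and zone. Ratios have exact conditional binomial intervals, levels exact Poisson ones and shares exact Clopper-Pearson ones, all at 95% and for counting error only. Genes entered the counts from 20 UMIs over the pair of libraries upward. The zone test used edgeR 4.0.16 (R 4.3.3, TMM, quasi-likelihood, Benjamini-Hochberg over all genes) on 6 sums with the library as a block. DESeq2 1.42.0 was an alternative. The zone marker genes were left out of its counts. Both steps were tested on simulated data. All 10 members are named, with up to 4 genes of each list by the largest absolute ratio of MASLD to SD. One regulator that this rule names is not reported here, and no counts are given for that list. For each member, 2 genes of like pattern are named, with at least 100 UMIs in the 9 sums and 0.5 UMIs added before the log. Filters, clustering, scaling, thinning, the fold and the zone limits were varied one at a time.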

Additional observations from a re-analysis of the deposited data

Results flagged for a closer look

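Ces1c and Ces1e were marked because the zone difference had opposite signs in 2 libraries, each with an interval that leaves out 0. For Ces1c the log2 ratio of the pericentral to the periportal zone was -0.015 with SD, -0.24 (-0.31 to -0.17) with MASLD and 0.13 (0.08 to 0.18) with Aza-TdC. For Ces1e it was -0.026 with SD, -0.12 (-0.22 to -0.02) with MASLD and 0.17 (0.10 to 0.24) with Aza-TdC. With narrower outer zones (5 equal parts of the score in place of 3) the Aza-TdC value of Ces1e was 0.05 and that of Ces1c 0.15. The Aza-TdC cluster with the highest median zone score had the lowest Ces1e level of that library, 139 CPM. With 1 library a group the difference between groups was not tested, and the intervals cover counting error only.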

How the results depend on the processing

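Each group has 1 library, so animals and libraries cannot be told apart from diet and drug. At a 1.5-fold line in place of 2-fold, 6 of 10 members passed for MASLD against SD (33.0% of all genes), 8 for Aza-TdC against MASLD (17.1%) and 9 for Aza-TdC against SD (27.6%). Under the other alternatives the counts were 3 to 4 (13.6% to 17.9% of all genes), 2 (4.81% to 7.73%) and 5 to 6 (10.9% to 14.8%). These were stricter filters on nuclei, no marker UMIs of other classes, joint clustering, the most deeply counted nuclei left out, thinning, matched mitochondrial share, median-ratio scaling, a minimum of 100 UMIs and equal weight of zones. They include 2 alternatives chosen after seeing the data, which add the unnamed MASLD nuclei or leave out the MASLD cluster of 362 nuclei. With matched mitochondrial share log2 ratios moved by -0.29 to 0.34, and Ces1f passed for MASLD against SD at 1.01. No called ratio changed sign. In the zone test 0 of 10 members were called without the replicate block, beside 0.724% of all genes. In that edgeR fit 1 had an unadjusted p under 0.05, as did 7.95% of all genes. With a library left out in turn 4 to 6 were called (9.47% to 18.0% of all genes). Zones of smaller size gave 5 (19.2% of all genes), with Ces2a lost (edgeR adjusted p = 0.0692). Each other alternative run gave 6 (11.1% to 18.0% of all genes), DESeq2 included. The matched mitochondrial share was not run for zones. The 6 sums of the zone fit leave 2 residual degrees of freedom. Few UMIs limit Ces2e.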
